A study of Homo sapiens with 12 samples.

Results

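The comparison described here set doxycycline against vehicle in HK-2 cells, without any inhibitor, and covered every gene with an FPKM of at least 1 in at least 3 of the 12 libraries of the study. That rule kept 12649 of the 26334 genes in the table. HK-2 is an immortalized line of human proximal tubule epithelium, and in this study it carried a PRCC-TFE3 fusion gene that doxycycline (Dox) switches on. The vehicle group (DMSO, 3 libraries) and the Dox group (3 libraries) were both harvested at 48 h, and both carried the fusion gene and grew under puromycin and blasticidin S. The other 6 libraries came from the same cells with the CDK8 and CDK19 inhibitor MSC2530818 at 100 nM, 3 without Dox and 3 with it. They entered the fit for their share of the estimate of spread. The design holds no Dox-treated cells that lack the fusion gene, so the effect of the fusion and that of Dox cannot be told apart. The dose of Dox and whether the line was 1 clone are not stated in the labels. The submitters describe the libraries of a group as independent biological replicates.

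TFE3 belongs to the MiT/TFE family, basic helix-loop-helix factors that bind E-box sequences in the promoters of genes for lysosomes, autophagy and nutrient sensing. In fed cells, Rag GTPases and the folliculin complex bring these factors to the lysosome, where mTORC1 phosphorylates them and holds them in the cytoplasm. PRCC-TFE3 keeps the DNA-binding part of TFE3 and is one of the fusions that define translocation renal cell carcinoma, a kidney cancer with a strong lysosomal and melanosomal expression pattern.

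FPKM (fragments per kilobase of transcript, relative to all fragments of a library) divides out transcript length, so levels may be compared between genes. The FPKM sums were 451326 to 473950 in the DMSO libraries and 447937 to 457530 in the Dox libraries. Absolute depth is unknown. Changes are differences of mean log2(FPKM + 1), which understates the change of low genes, and carry the SE of the limma fit. A gene was called when its limma adjusted p (Benjamini-Hochberg, two-sided) was under 0.05. Library DMSO 1 stood apart: over genes, its deviation from the mean of the libraries had a rank correlation of 0.656 with transcript GC content, against 0.217 and -0.445 in DMSO 2 and 3 and -0.403 to -0.163 in the Dox libraries. The change itself had a rank correlation of -0.391 with GC content over 12389 genes, as a description. The median GC content was 46.1% for genes called higher, 53.9% for genes called lower and 48.2% for all tested genes. The part of GC content in the calls was not tested beyond the fits given in the closing section.

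The cells were checked against marker genes of 7 cell types. Of 13 proximal tubule markers, 5 were tested, among them the peptidase genes DPP4, MME and GGT1 and the transcription factor gene PAX8. The transporter and receptor genes LRP2, CUBN, SLC34A1, SLC5A2, SLC22A6 and AQP1 lay under 1 FPKM in all 6 libraries. The transport genes of this marker list were thus all below that level, which does not cover other transporters of the proximal tubule. The peptidase gene ANPEP and the regulator HNF4A also lay under 1 FPKM in all 6. The summed level of the 13 markers was 209 to 234 FPKM with DMSO and 214 to 231 with Dox. Markers of distal tubule, podocyte and endothelium were at or near 0 apart from PODXL (4.67 to 5.98 FPKM). The leukocyte sum went from 34.4 to 42.6 FPKM with DMSO to 53.2 to 58.7 with Dox through 1 gene, CD68, which encodes a lysosomal membrane protein. PTPRC, the common leukocyte gene, stayed at 0.02 FPKM or below. The fibroblast sum went from 6.17 to 6.79 FPKM to 10.7 to 12 through LUM. Of the collagen markers, COL1A1 was at 3.49 to 4.82 FPKM over the 6 libraries (-0.16, not called) and COL1A2 was listed at 0 in all of them. The melanocyte sum went from 0.74 to 1.14 FPKM to 1.3 to 1.56 through PMEL, and TYR was listed at 0 throughout.

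Dox changed 2269 genes, 17.9% of those tested: 1344 were called higher (10.6%) and 925 lower (7.31%). The median change was 0.419 among the genes called higher and -0.353 among those called lower, against 0.041 over all tested genes. At least 2-fold changes were fewer, with 71 genes higher (0.561%) and 21 lower (0.166%), and 9 genes higher and 1 lower passed 4-fold. Of all calls, 59.2% were higher, which became 44.9% after median-ratio scaling of the libraries and 43.3% after quantile normalization. Without DMSO 1 the fit called 1694 genes, 1108 higher and 586 lower; without DMSO 2 it called 1492 and without Dox 3 it called 1427. The 3 Dox libraries lay apart from the 3 DMSO libraries in 2258 of the 2269 called genes, and in 39% of all tested genes. The share of genes called grew with the level, from 12.9% of genes below 5 FPKM to 25.2% of the 757 genes at 100 FPKM or more. In RNA from whole cultures, a change in the share of cells that express a gene and a change in RNA per cell cannot be told apart.

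**Figure D1:**
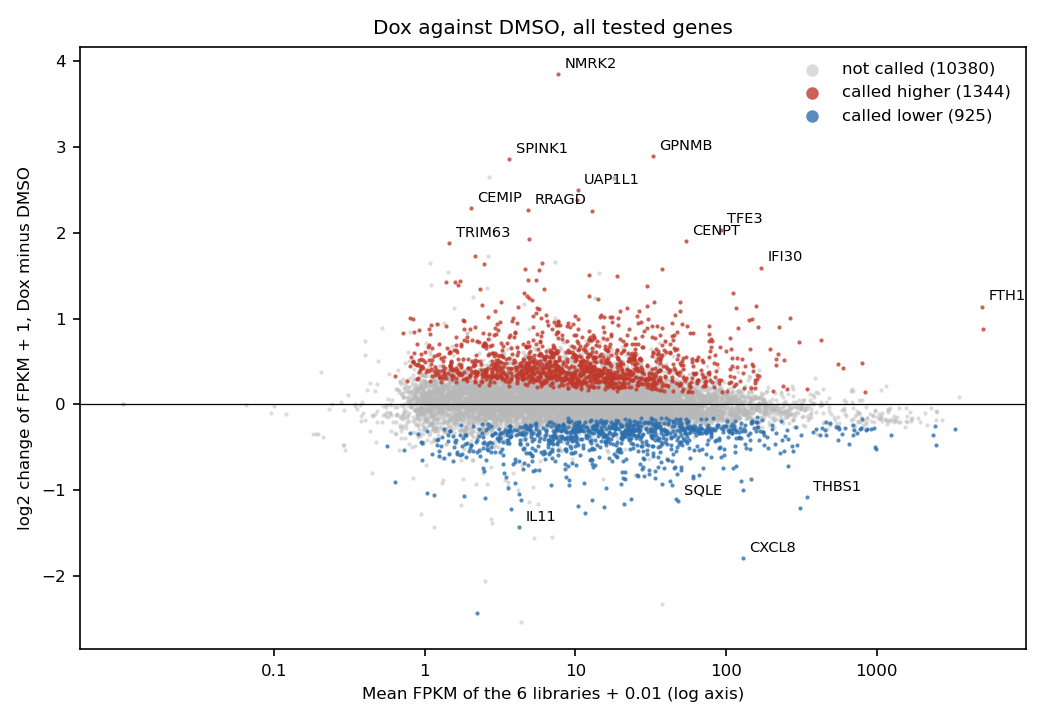
Each point is 1 of 12649 tested genes, with its mean FPKM over the DMSO and Dox libraries on the x axis (log axis) and its log2 change (Dox minus DMSO) on the y axis. Red points are the 1344 genes called higher and blue points the 925 called lower. The labelled genes NMRK2, GPNMB and SPINK1 lie farthest above 0 and CXCL8 and IL11 lie well below it.

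The targeted gene rose. TFE3 stood at 38.9, 35.8 and 32.7 FPKM in the DMSO libraries and at 149, 154 and 146 FPKM in the Dox libraries. Every Dox library lay far above every DMSO library, and the change was 2.04 ± 0.07 (adjusted p = 1.4e-08). PRCC, the other partner of the fusion and a gene for a splicing-associated protein, stood at 30.9, 28.8 and 25.8 FPKM with DMSO and 40.0, 43.4 and 41.6 with Dox. It rose by 0.54 ± 0.10 (adjusted p = 0.0035), a much smaller step than that of TFE3. Fragments of the introduced fusion and of the resident genes are summed in these values and cannot be separated. The related factor MITF (13.2 to 17.4 FPKM over the 6 libraries, change -0.22, adjusted p = 0.17) and the related factor TFEB (1.23 to 1.81 FPKM, change 0.075, adjusted p = 0.65) were not called. CDK8 and CDK19, kinases of the Mediator complex and the targets of the inhibitor, were not called either (changes of 0.19 and 0.017).

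The largest rises joined genes known from translocation carcinoma with genes of sugar and prostaglandin metabolism. NMRK2, which makes NAD from nicotinamide riboside, was at 0.11, 0.08 and 0.17 FPKM with DMSO and 12.5, 16.6 and 16.6 FPKM with Dox (3.85 ± 0.16, adjusted p = 9.8e-08). It was thus nearly silent in vehicle and well expressed in each Dox library. GPNMB, a melanosomal and lysosomal glycoprotein, was at 7.36, 6.43 and 7.27 FPKM with DMSO and at 55.02, 60.67 and 60.25 with Dox (2.90 ± 0.08, adjusted p = 3.6e-09). SPINK1, a secreted trypsin inhibitor, was at 0.13, 0.19 and 0 FPKM against 6.66, 9.06 and 5.73 (2.86 ± 0.20, adjusted p = 3e-06).
The change of SPINK1 had a larger SE than that of GPNMB. Neither gene's groups overlapped, which was a condition for the largest rises named here. UAP1L1, a relative of the enzyme that makes UDP-N-acetylglucosamine, went from 2.12 to 2.66 FPKM to 17.5 to 19.0 (2.50 ± 0.08). RENBP, an epimerase of N-acetylglucosamine also known as renin-binding protein, went from 2.39 to 2.81 FPKM to 16.7 to 18.7 (2.38 ± 0.11). PTGDS, a prostaglandin D2 synthase, went from 3.41 to 4.34 FPKM to 17.5 to 24.2 (2.25 ± 0.19).

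Further large rises were those of C21orf91 (1.93), the kinetochore gene CENPT (1.91, from 21.02 to 23.64 FPKM to 83.3 to 88.4), the TNF receptor family gene TNFRSF14 (1.65) and BEX2 (1.58). IFI30, a thiol reductase that opens disulfide bonds in lysosomes, reached one of the highest levels in this set, 237, 265 and 270 FPKM against 93.7, 82.2 and 78.4 (1.595 ± 0.083). ASAH1, the acid ceramidase, rose by 1.57 ± 0.13 and ACP5, tartrate-resistant acid phosphatase, by 1.50 ± 0.10. The sulfotransferase gene SULT1C2 (1.57), the tetraspanin gene TSPAN10 (1.45) and the matrix proteoglycan gene LUM (1.45 ± 0.23) complete the 20 largest rises together with TFE3 and 3 regulators of the Rag pathway given further on. LUM was at 1.32, 2.45 and 2.73 FPKM with DMSO, all below its Dox libraries (7.07 to 7.89), as the rule for these rises required.

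**Figure D2:**
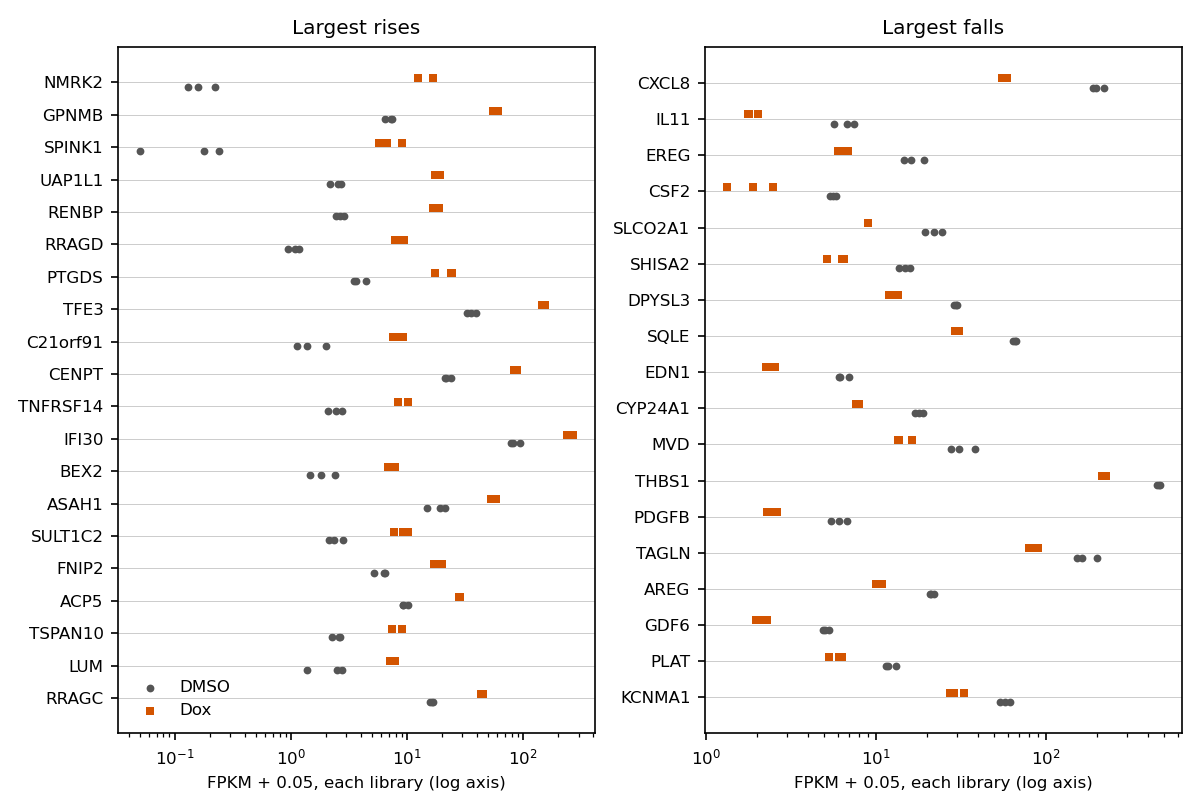
FPKM + 0.05 of each of the 6 libraries (log axes) for the 20 genes with the largest called rise and 18 of the 20 with the largest called fall among genes with a mean of at least 5 FPKM in the higher group and no overlap of groups. Grey circles are DMSO and orange squares are Dox libraries. NMRK2 lay at 0.08 to 0.17 FPKM with DMSO and 12.5 to 16.6 with Dox, and CXCL8 at 189 to 221 with DMSO and 55.4 to 59 with Dox.

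A set of 60 called genes was below 1 FPKM in all 3 DMSO libraries and at 1 FPKM or more in all 3 Dox libraries. Besides NMRK2 and SPINK1 it held CEMIP, a gene needed to break down hyaluronan, at 0.01, 0.03 and 0.02 FPKM against 4.28, 4 and 3.68 (2.29 ± 0.09). TRIM63, a ubiquitin ligase gene best known from muscle and a marker of this carcinoma, was at 0.03 to 0.07 FPKM against 2.59, 3 and 2.96 (1.88 ± 0.08). PLA1A, a phospholipase (1.64), LY96, a partner of Toll-like receptor 4, the long non-coding RNA GAPLINC and the B-cell lectin gene CD22 were others of the 10 with the largest change. In the opposite direction 13 called genes went from 1 FPKM or more to below 1. Among them were the tight junction gene CLDN2 (3.70, 2.18 and 2.61 FPKM against 0.83, 0.82 and 0.74) and the chemokine gene CCL20 (1.86, 2.39 and 1.45 FPKM against 0.43, 0.55 and 0.18). The hyaluronan-binding gene TNFAIP6, the signalling adaptor gene TRAF1 and WNT2B also went off by this measure. All of these lie close to the floor of 1 FPKM in one of the groups, where the log2 scale understates the change.

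Promoter sequences are shown because the called genes differed from the others in how often they held letters that MiT/TFE factors are known to bind. The motifs searched, on both strands, were the E-box CACGTG, its longer form TCACGTGA, the 10-base palindrome known as the CLEAR consensus, of which each holds the one before it, and the M-box TCACATGA. The window ran from 250 bases before the transcription start to 50 after it in RefSeq (GRCh38.p14), and 10023 of the 12649 tested genes (79.2%) had an entry, so shares describe those genes and not all tested ones. First the M-box, in 5 genes called higher, at chr7:23246692-23246739 (GPNMB, plus strand), chr1:26067654-26067701 (TRIM63, minus), chr2:108288769-108288816 (SULT1C2, plus), chr17:81642204-81642251 (TSPAN10, plus) and chr11:6619423-6619463 (TPP1, minus). Each run is written 5′ to 3′ on the gene's strand, ends before the start, and has the motif in capitals.
GPNMB: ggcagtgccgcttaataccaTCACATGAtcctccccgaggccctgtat
TRIM63: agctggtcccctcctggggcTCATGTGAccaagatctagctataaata
SULT1C2: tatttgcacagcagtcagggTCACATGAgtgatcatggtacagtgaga
TSPAN10: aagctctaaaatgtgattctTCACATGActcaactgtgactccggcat
TPP1: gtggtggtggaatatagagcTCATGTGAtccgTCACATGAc
In these runs the M-box begins 63 bases before the start of GPNMB, 51 before that of TRIM63, 106 before that of SULT1C2 and 81 before that of TSPAN10. The lysosomal peptidase gene TPP1 holds it in both orientations, 21 and 9 bases before the start.

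The E-box and its longer forms are shown in 9 genes of the lysosome and of the Rag and amino sugar pathways, with the motif in capitals as before. They lie at chr19:7522562-7522623 (MCOLN1, plus), chr6:159968929-159969081 (IGF2R, plus), chr20:45891273-45891334 (CTSA, plus), chr11:1763949-1763994 (CTSD, minus), chr6:31862922-31862967 (NEU1, minus), chrX:55717614-55717748 (RRAGB, plus), chr1:38859859-38859904 (RRAGC, minus), chr16:2520272-2520370 (AMDHD2, plus) and chr5:142013033-142013078 (GNPDA1, minus).
MCOLN1: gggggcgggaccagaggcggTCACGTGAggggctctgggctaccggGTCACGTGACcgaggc
IGF2R: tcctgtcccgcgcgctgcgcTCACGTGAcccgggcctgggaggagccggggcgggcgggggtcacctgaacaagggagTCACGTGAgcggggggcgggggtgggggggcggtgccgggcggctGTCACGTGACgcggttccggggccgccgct
CTSA: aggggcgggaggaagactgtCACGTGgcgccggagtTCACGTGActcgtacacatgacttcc
CTSD: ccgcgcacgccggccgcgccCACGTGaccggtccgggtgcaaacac
NEU1: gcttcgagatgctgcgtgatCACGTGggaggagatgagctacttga
RRAGB: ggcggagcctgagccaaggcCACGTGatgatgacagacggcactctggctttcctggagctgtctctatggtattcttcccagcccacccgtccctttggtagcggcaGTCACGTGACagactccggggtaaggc
RRAGC: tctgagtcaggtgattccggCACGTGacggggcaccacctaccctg
AMDHD2: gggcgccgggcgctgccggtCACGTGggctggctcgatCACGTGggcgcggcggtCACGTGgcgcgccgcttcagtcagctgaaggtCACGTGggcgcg
GNPDA1: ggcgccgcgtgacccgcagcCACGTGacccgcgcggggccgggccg
MCOLN1, CTSA and RRAGB hold 2 such matches, IGF2R holds 3 and AMDHD2 holds 4 within 99 bases. The motif is also present without a rise: HAS3, a hyaluronan synthase gene that fell by 0.78, holds CACGTG in the window at chr16:69107454-69107499 (plus strand), shown for contrast.
HAS3: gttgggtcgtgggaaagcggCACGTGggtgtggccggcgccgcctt

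Of the 87 genes with TCACATGA in the window, 47.1% were called higher and 2.3% lower, against 10.4% and 7.13% of the genes without it. For TCACGTGA (210 genes) the shares were 34.3% and 2.38%, for the CLEAR consensus (85 genes) 31.8% and 1.18%, and for the core CACGTG (1062 genes) 21% and 4.8%. Read the other way, 20.7% of the promoters of genes called higher held CACGTG, against 7.18% for genes called lower, 10.6% for all tested genes and 7.43% of all 27305 promoters in the table. TCACATGA was in 3.81%, 0.282%, 0.868% and 1.01% of the same sets, TCACGTGA in 6.7%, 0.704%, 2.1% and 1.04%, and the CLEAR consensus in 2.51%, 0.141%, 0.848% and 0.381%. For each motif the share was larger among all genes called higher than among those called lower, also among genes with a mean of at least 5 FPKM. This did not extend to every set. Among the 55 genes with an entry that were called higher at least 2-fold, TCACATGA was in 12.7% and CACGTG in 20%, but TCACGTGA in 1.82% and the CLEAR consensus in 0%. CACGTG was also in 20% of the promoters of the tested cholesterol synthesis genes, which fell, and in 9.3% of those of the tested autophagy genes, of which 14 of 51 rose. A match describes letters in a window and is no evidence of binding, and several of the largest rises, among them NMRK2, SPINK1, RENBP, CENPT, FNIP2 and ACP5, held none of these letters before the start.

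**Figure D3:**
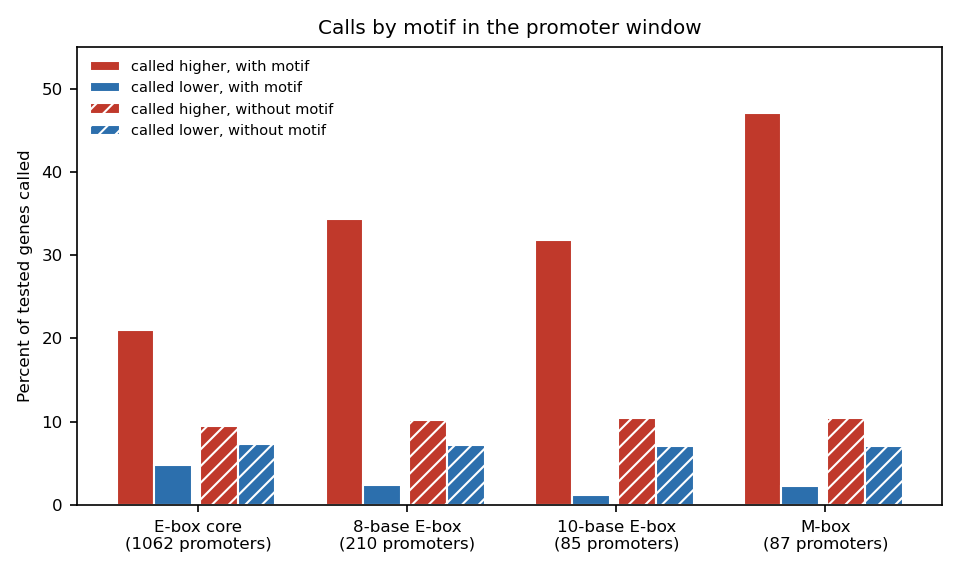
Percent of tested genes with a promoter entry that were called higher (red) or lower (blue), for genes with the motif in the window (plain bars) and without it (hatched bars). The y axis starts at 0, the 10-base E-box is the CLEAR consensus, and the number of genes with each motif is in brackets. The plain red bar is the tallest for every motif and reaches 47.1% for the M-box, against 10.4% without it.

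Genes of the folliculin and Rag GTPase machinery, which controls where MiT/TFE proteins reside, rose together. All 7 members were tested and 6 were called higher, with a median change of 1.02. RRAGD stood at 1.13, 0.90 and 1.04 FPKM with DMSO and 7.84, 8.84 and 9.45 with Dox (2.26 ± 0.08, adjusted p = 2.6e-08). RRAGC, a second Rag GTPase of the same subfamily, stood at 15.8, 16.2 and 16.8 FPKM against 43.1, 43.4 and 44.9 (1.38 ± 0.05, adjusted p = 4.5e-08). FLCN, the folliculin gene, stood at 11.8, 11.8 and 9.95 FPKM against 23.5, 23.6 and 23.7 (1.02 ± 0.06).
RRAGC was thus more abundant than RRAGD in both groups while RRAGD had the larger change. No DMSO library reached any Dox library in the 3 genes, a separation shared by 2258 of the 2269 called genes. The folliculin partners FNIP2 (5.18 to 6.38 FPKM against 17.11 to 20.01, change 1.50) and FNIP1 (4.57, 6.04 and 6.93 FPKM against 11.4, 12.2 and 11.7, change 0.92 ± 0.16) both rose. RRAGB rose by 0.65 ± 0.06, and RRAGA was not called (17.1 to 17.3 FPKM against 20.1 to 20.5, change 0.23, adjusted p = 0.062). Of 29 genes for the Ragulator, GATOR and mTORC1 core complexes, 5 were called higher (17.2%, against 10.6% of all tested genes) and 0 lower, with a median of 0.054. The largest rises were those of the scaffold gene LAMTOR3 (0.71), TBC1D7 (0.58), the gene of a TSC complex subunit, and the growth inhibitor gene TSC1 (0.36). Without DMSO 2 this count was 3.

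Lysosomal enzymes were called higher in 36 of 58 cases (62.1%, against 10.6% of all tested genes) and lower in 1, PPT2 (-0.24), with a median of 0.34. The call of PPT2 was lost without DMSO 2, Dox 1 or Dox 3 (-0.242 to -0.226). NEU1, a sialidase, rose from 56.5 to 74.0 FPKM to 151 to 170 (1.30 ± 0.09). CTSD, a major aspartic protease of the lysosome, stood at 196, 173 and 160 FPKM with DMSO and at 326, 378 and 364 with Dox (1.01 ± 0.08, adjusted p = 1.2e-05). CTSA, which stabilizes NEU1 in a shared complex, rose by 0.98 ± 0.07 and TPP1 by 1.08 ± 0.06.
Each of these 4 genes had its Dox libraries above its DMSO libraries, and 2258 of the 2269 called genes had groups apart. CTSD and IFI30 were among the abundant transcripts of these cells, far above the floor of 1 FPKM. Over the alternative settings the count of enzymes called higher ran from 31 to 38, and from 29 to 37 with 1 library left out.

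Of 48 lysosomal membrane proteins, 25 were called higher (52.1%, against 10.6% of all tested genes) and 1, the channel gene TPCN1 (-0.52), lower. The median was 0.298. MCOLN1, a calcium channel of the lysosome and a known MiT/TFE target, stood at 7.56, 6.82 and 5.99 FPKM against 11.9, 13.1 and 12.8 (0.81 ± 0.08). Its relative MCOLN3 rose by 1.03, the sialic acid exporter gene SLC17A5 by 1.02 ± 0.08 and the chloride transporter gene CLCN5 by 1.02. CLCN7 (0.70) and OSTM1 (1.04 ± 0.18), which encode the units of 1 proton-chloride exchanger, both rose. The proton pump that acidifies the lysosome changed over most of its subunits: 14 of 19 tested V-ATPase genes were called higher and 0 lower, with a median of 0.463. The cytosolic V1 part held the largest changes, with ATP6V1C1 (16.3, 20.6 and 23.1 FPKM against 44.6, 45.8 and 48.9, change 1.19 ± 0.16), ATP6V1A (0.95), ATP6V1F (0.89) and ATP6V1H (0.79). DMSO 1 was the lowest DMSO library for both ATP6V1C1 and OSTM1, and the calls of both held without it.

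**Figure D4:**
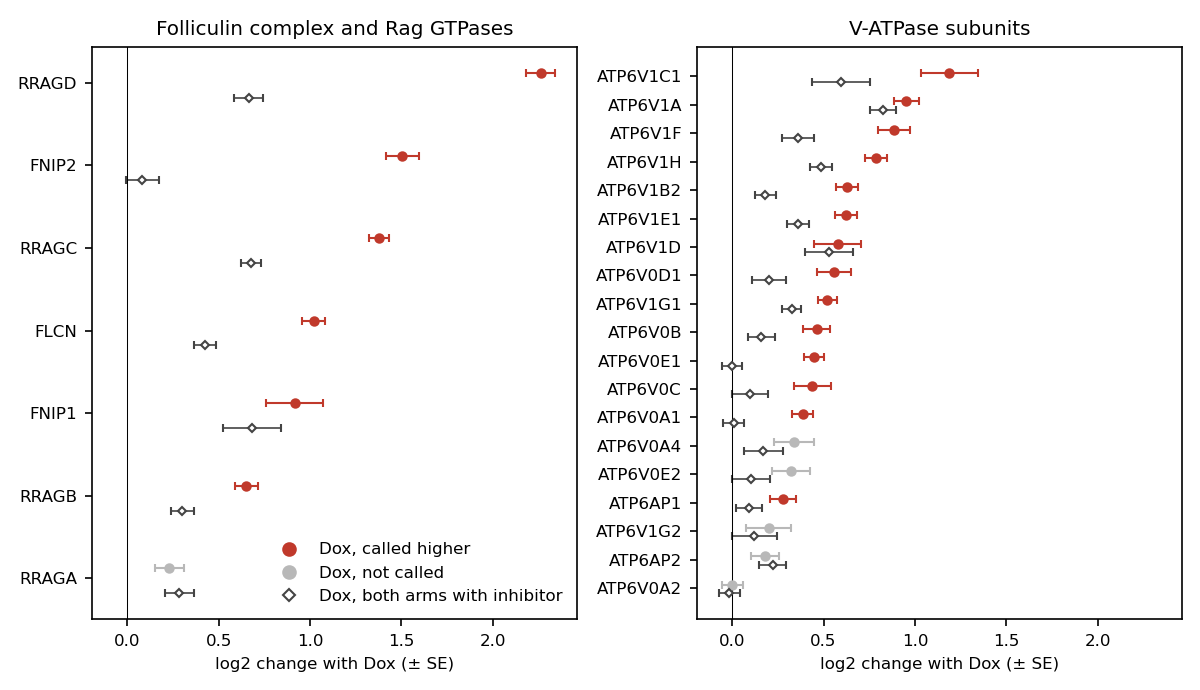
Log2 change with Dox (± SE of the limma fit) for the 7 folliculin and Rag genes and the 19 tested V-ATPase subunits. Filled circles are Dox against DMSO, red where called and grey where not, and open diamonds are the change when both arms had the inhibitor. RRAGD lies at 2.26 and ATP6V1C1 at 1.19, and the filled circle lies to the right of the diamond for 6 of 7 folliculin and Rag genes.

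Transport to the lysosome showed the same direction with smaller changes. Of 53 genes, 21 were called higher (39.6%, against 10.6% of all tested genes) and 0 lower, with a median of 0.192. IGF2R, the large mannose 6-phosphate receptor that delivers new enzymes, stood at 60.6, 57.9 and 54.8 FPKM against 96.6, 99.7 and 95.5 (0.74 ± 0.05). Others were the Rab gene RAB9A (0.75), the tethering subunit gene VPS18 (0.75), the sorting nexin gene SNX2 (0.84) and the lysosome adaptor gene PLEKHM1 (0.65). Autophagy genes were called higher in 14 of 51 cases (27.5%) and lower in 0. SQSTM1, the p62 cargo receptor, rose from 139 to 177 FPKM to 270 to 308 (0.90 ± 0.10). The protease gene ATG4A (0.93), the mitophagy receptor gene BNIP3 (0.53), the receptor gene CALCOCO1 (0.52) and the lipid transfer gene ATG2A (0.45) also rose.

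Genes of the melanosome, a lysosome-related organelle, were called higher in 7 of 14 tested cases and lower in 0. The share called higher was 50%, against 10.6% of all tested genes. The genes called higher included the trafficking genes RAB38 (0.85 ± 0.11), HPS1 (0.60) and MLPH (0.59). GPR143, a pigment cell receptor, was at 76.2, 67.3 and 62.8 FPKM with DMSO and 92.8, 96.6 and 100 with Dox (0.49 ± 0.08). The pigment enzyme gene TYR was listed at 0 in these libraries, as given above. Without DMSO 2 or without Dox 3 the count was 4. Of 15 tested markers of translocation renal carcinoma, 12 were called higher and 0 lower, with a median of 1.09; that list was drawn from published tumour markers and from genes already seen in these data, so its count is no independent evidence. PLIN2, a coat protein of lipid droplets, stood at 32.7, 30.9 and 30.0 FPKM against 68.0, 68.2 and 66.9 (1.09 ± 0.05).

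Of 20 amino sugar genes 6 were called higher (30%, against 10.6% of all tested genes) and 0 lower. Of the 6, UAP1L1 and RENBP were among the 5 largest rises. Others were GNPDA1, which turns glucosamine 6-phosphate into fructose 6-phosphate (31.1, 29.1 and 29.2 FPKM against 70.1, 71.5 and 67.2, change 1.20 ± 0.08), and AMDHD2, which deacetylates N-acetylglucosamine 6-phosphate (0.78 ± 0.08). Together with RENBP these enzymes lie on the route by which free amino sugars re-enter glycolysis. The remaining called members, FPGT and CMAS, had changes of 0.42 and 0.20 and lost their calls under several settings. Iron genes were called higher in 9 of 20 cases (45%) and lower in 3 (15%, against 7.31% of all tested genes). The ferritin heavy chain gene FTH1 was at 3509, 3064 and 2864 FPKM with DMSO and 6766, 6861 and 7083 with Dox (1.14 ± 0.11, adjusted p = 3.7e-05). FTL, the light chain gene, was at 3948, 3528 and 3246 FPKM against 6267, 6709 and 6633 (0.88 ± 0.10), but stood at -0.157 after quantile normalization (adjusted p = 0.06). NCOA4, the receptor that takes ferritin to the lysosome, rose by 0.45 ± 0.05, HMOX1 by 0.57 ± 0.07 and the metal transporter gene SLC39A8 by 0.63. The mitochondrial iron importer gene SLC25A37 fell by 0.70 ± 0.08. Without DMSO 1 or without DMSO 2 the number of iron genes called lower was 1.

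Genes of cholesterol synthesis fell: 19 of 27 were called lower (70.4%, against 7.31% of all tested genes) and 0 higher, with a median of -0.515. SQLE, which oxidizes squalene, was at 67.2, 64.2 and 66.0 FPKM with DMSO and 29.3, 30.7 and 29.2 with Dox (-1.12 ± 0.05, adjusted p = 1.5e-07). MVD, the mevalonate diphosphate decarboxylase, fell by 1.11 ± 0.11, and HMGCS1, which makes the precursor HMG-CoA, was at 45.5, 49.7 and 52.4 FPKM against 24.6, 25.3 and 26.1. MSMO1 (-0.81), ACAT2 (-0.74) and FDFT1 (-0.74) followed. The count of genes called lower ran from 17 to 20 when 1 library was left out and from 18 to 22 over the other settings. SREBF1, which encodes a factor of lipid synthesis, moved against these genes, from 15.8 to 20.5 FPKM to 31.4 to 40.3 (0.96 ± 0.11, adjusted p = 9.1e-05).

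Other lipid genes split. Among 26 genes of fatty acid and triglyceride synthesis, 5 were called higher (19.2%) and 6 lower (23.1%). All tested genes had 10.6% and 7.31%. Higher were ACSL1, which activates fatty acids (1.13 ± 0.09), and the phosphatidate phosphatase gene LPIN2 (0.56), among others. Lower were, among others, the elongase gene ELOVL6 (-0.75) and ACLY, which makes cytosolic acetyl-CoA (-0.56). Fatty acid oxidation had 9 of 29 genes called higher (31%) and 1 lower (3.45%). The lower call, that of ECI1 (-0.37), was lost under many settings, among them leaving out DMSO 1, DMSO 2 or any 1 Dox library (-0.426 to -0.301). Among the higher ones were CPT1A, the gate to mitochondrial import (0.50 ± 0.08), ETFDH (0.67) and the coactivator gene PPARGC1A (0.60). In prostaglandin metabolism the synthase genes PTGDS and PTGES (2.67 to 3.94 FPKM against 7.31 to 8.24, change 1.07 ± 0.12) rose and the prostaglandin transporter gene SLCO2A1 fell from 19.5 to 24.5 FPKM to 9 to 9.02 (-1.19 ± 0.07). Of the 12 genes of that list, 3 were called higher (25%) and 2 lower (16.7%). Of these calls, those of PTGR2 (0.29) and HPGD (-0.41) were lost under many settings, among them leaving out DMSO 2 or any 1 Dox library.

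Lists of energy metabolism differed in how many genes were called, against 10.6% higher and 7.31% lower of all tested genes. Of 76 nuclear genes for subunits of the respiratory chain and ATP synthase, 2 were called higher (2.63%) and 0 lower, with a median of 0.014. Both higher calls, UQCRFS1 (0.36) and UQCRC2 (0.21), were lost under most settings, and with 1 library left out 0 to 2 genes were called in either direction. Of 79 mitochondrial ribosomal proteins, 2 were called in each direction (2.53%). With 1 library left out 1 to 5 were higher and 0 to 3 lower, and the lower count was 6 with median-ratio scaling, 12 with the replicate block and 14 with the length and GC trend removed. Of 32 genes of the TCA cycle and glutamine entry, 7 were called higher (21.9%) and 2 lower, and 3 to 7 were higher with 1 library left out. Glycolysis genes were called higher in 6 of 24 cases (25%), with the neuronal enolase gene ENO2 at 0.92 ± 0.07 and the regulatory kinase gene PFKFB2 at 0.77, and lower in 2. The hypoxia list had 7 of 22 higher (31.8%) and 2 lower, with the HIF-2α gene EPAS1 at 71.1, 66.8 and 63.4 FPKM against 98.4, 103 and 100 (0.58 ± 0.05). Cytosolic ribosomal protein genes had 1 of 82 called higher and 10 lower with a median of -0.182, and the number called lower ran from 0 without DMSO 1, without DMSO 2 or without Dox 2 to 24 without inhibitor 1. That number was 1 with quantile normalization, 21 with median-ratio scaling, 54 with the replicate block, 38 after removal of the length and GC trend and 67 with both of these. RPL21, which has many processed pseudogenes, was listed between 0 and 88.9 FPKM within these 6 libraries and is uncertain.

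**Figure D5:**
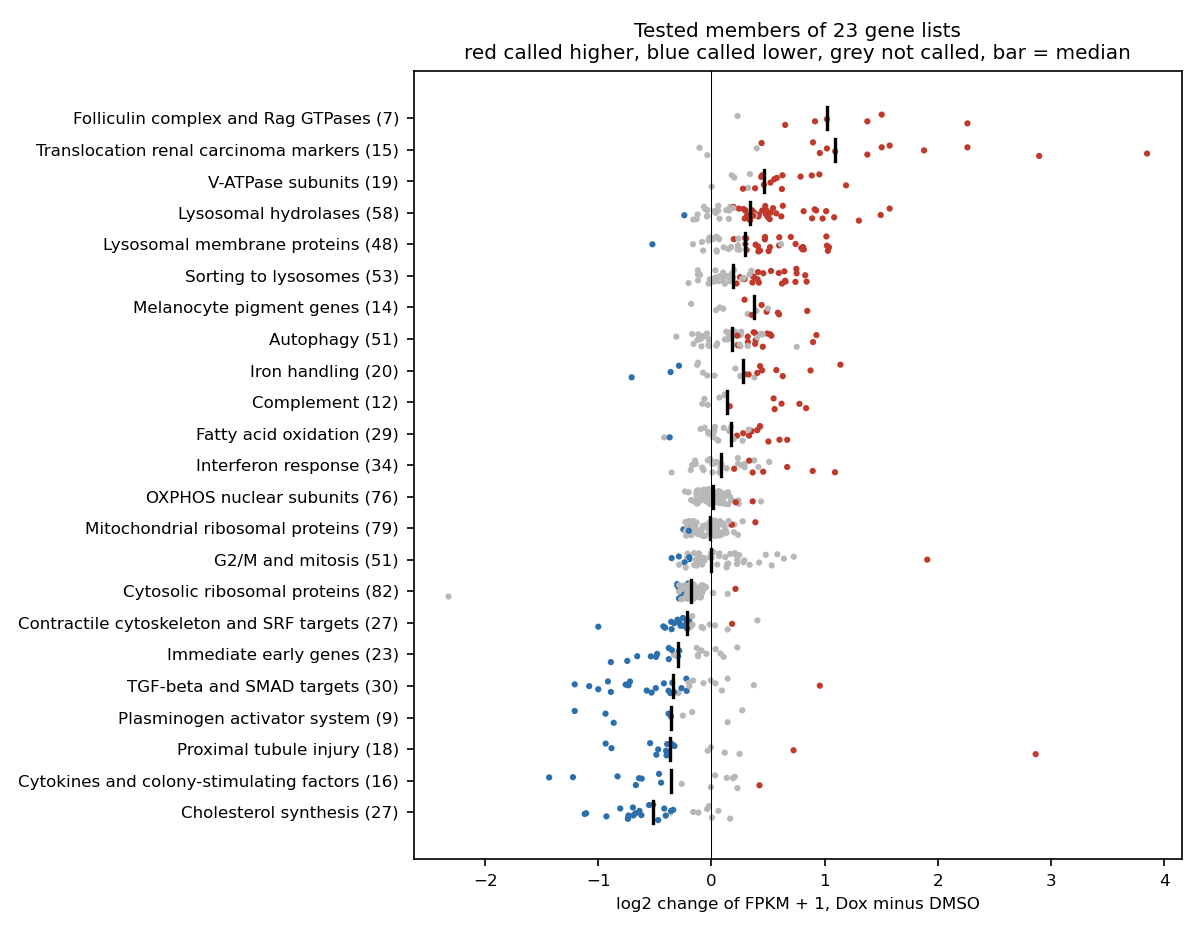
Log2 change (Dox minus DMSO) of the tested members of 23 lists, 1 point per gene, with the number tested in brackets. Red points were called higher, blue lower and grey not called, and the bar is the list's median. The folliculin and Rag list and the cholesterol list have medians of 1.02 and -0.515, while the respiratory chain list lies around 0.

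Genes for several secreted inflammatory factors fell. CXCL8, the neutrophil chemokine interleukin 8, was at 189, 197 and 221 FPKM with DMSO and 55.4, 58.0 and 59 with Dox (-1.80 ± 0.08, adjusted p = 1.5e-07). Of 16 tested cytokine genes, 8 were called lower (50%, against 7.31% of all tested genes) and 1, IL34 (0.42), higher. Their median was -0.354. IL11 was at 7.44, 6.75 and 5.67 FPKM against 1.72, 1.74 and 1.97 (-1.43 ± 0.11), and CSF2, the granulocyte-macrophage growth factor, at 5.36 to 5.80 against 1.28 to 2.44 (-1.22 ± 0.15).
All DMSO libraries lay above all Dox libraries for these 3 genes, which the rule for the largest falls required. IL6 (-0.83 ± 0.09), TNF (-0.67), LIF (-0.62) and the death ligand gene TNFSF10 (-0.64) fell as well. Of 8 tested chemokines, 4 fell, CXCL2 (-0.85) and CCL20 (-1.06) among them, and 2 were called higher, CXCL16 (0.34) and CX3CL1 (0.29). Both higher calls were lost under median-ratio scaling (0.30 and 0.26) and without single libraries such as DMSO 2 (0.325 and 0.301), and that of IL34 without DMSO 2 (0.461). Not every gene of inflammation went down: SOD2, the mitochondrial superoxide dismutase induced by NF-κB, rose from 77.6 to 79.0 FPKM to 119 to 150 (0.77 ± 0.07), while the inhibitor gene NFKBIA fell (-0.41 ± 0.09).

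Growth factor genes changed in both directions, and early response genes were called in 1 direction. Of 12 tested EGF receptor ligands and receptors, 5 were called lower (41.7%) and 3 higher (25%). Of 19 angiogenic and growth factors, 7 were lower (36.8%) and 3 higher (15.8%). Over all tested genes 7.31% were lower and 10.6% higher. The EGF receptor ligand EREG was at 14.6, 16.2 and 19.3 FPKM against 6.79, 5.93 and 6.25 (-1.26 ± 0.10), AREG fell by 0.98 ± 0.09, TGFA by 0.50 and HBEGF by 0.47. The receptor gene ERBB3 rose from 0.55 to 1.33 FPKM to 2.44 to 2.90 (0.88 ± 0.17). The vasoconstrictor gene EDN1 (-1.12 ± 0.08), the platelet-derived growth factor gene PDGFB (-1.05) and the lymphatic growth factor gene VEGFC (-0.55) fell, whereas VEGFB rose by 0.61. Of 23 immediate early genes, 11 were called lower and 0 higher, with a median of -0.294. MYC, the growth-promoting transcription factor, was at 131, 116 and 112 FPKM with DMSO and 70.0, 72.7 and 70.2 with Dox (-0.74 ± 0.06, adjusted p = 1.3e-05). JUNB fell by 0.89 ± 0.10, IER2 by 0.66 and FOSL1 by 0.48. Of 18 ERK feedback genes, 6 were called lower, among them the inhibitor gene SPRY2 (-0.48) and the ETS factor gene ETV4 (-0.46), and 2 higher. The lower count ran from 3 to 7 with 1 library left out.

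Many targets of TGF-β and genes of contraction fell. Of 30 TGF-β and SMAD targets, 19 were called lower (63.3%, against 7.31% of all tested genes) and 1, the inhibitor of differentiation ID2 (0.96), higher, with a median of -0.339. THBS1, the adhesive glycoprotein thrombospondin 1, was at 473, 467 and 454 FPKM against 227, 216 and 214 (-1.08 ± 0.04). TAGLN, an actin-binding protein of smooth muscle, was at 201, 165 and 152 FPKM against 80.3, 90.6 and 84.8 (-1 ± 0.10).
These abundant transcripts, each at 152 FPKM or more in every DMSO library, were lower in each Dox library. That separation was required by the rule for the largest falls. The count of 19 became 12 without DMSO 1 and 11 without DMSO 2. CTGF fell by 0.89 ± 0.07, the matrix binding gene LTBP2 by 0.92 and the activin gene INHBA by 0.76, and the signal transducer gene SMAD3 fell by 0.60 ± 0.05. ANKRD1, often counted with CTGF as a YAP target, moved the opposite way, from 66.7 to 79.4 FPKM to 156 to 167 (1.13 ± 0.08). Of 21 YAP and TEAD targets, 8 were called lower and ANKRD1 was the 1 called higher.

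Contractile and cytoskeletal genes were called lower in 15 of 27 cases (55.6%, against 7.31% of all tested genes) and higher in 1, MYL12A (0.18). Most changes were small (median -0.215). Examples were FLNA (-0.41), ZYX (-0.42) and ACTN1 (-0.33), which link actin to adhesion sites. Without DMSO 1, without DMSO 2 or without Dox 3 the count of lower calls was 9, and the call of MYL12A was lost without DMSO 1, DMSO 2, Dox 1 or Dox 2 (0.162 to 0.184). In the plasminogen system 5 of 9 genes fell and 0 rose. Among them were the activator genes PLAT (-0.94 ± 0.07) and PLAU (-0.38), the receptor gene PLAUR (-0.36) and the tissue factor gene F3 (183, 187 and 196 FPKM against 108, 103 and 98.4, change -0.86 ± 0.05). The call of PLAUR was lost without any 1 of DMSO 1, DMSO 2 or Dox 1 to 3 (-0.361 to -0.294). Matrix genes and proteases fell in 11 of 28 cases, such as COL8A1 (-0.63) and MMP1 (-0.69), and rose in 3, LUM, MMP13 (0.97) and TIMP2 (0.47). LAMB3, a laminin chain of epithelial basement membrane, fell by 0.52. Hyaluronan genes split, with CEMIP far higher and the synthase gene HAS3 and the receptor gene CD44 (-0.54) lower.

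Genes of epithelial identity changed in both directions. Among 28 junction and keratin genes, 11 were called lower (39.3%) and 4 higher (14.3%), against 7.31% and 10.6% of all tested genes. The median was 0.024. Lower were CLDN2, KRT7 (10.9, 8.48 and 8.82 FPKM against 4.79, 4.09 and 4.37, change -0.94 ± 0.09), CDH6, a cadherin of the developing nephron (-0.88), CLDN1 (-0.52) and KRT19 (-0.49). Higher was, among others, the plakophilin gene PKP2 (0.61). Genes linked with proximal tubule injury were called lower in 12 of 18 cases and higher in 2, SPINK1 and SPP1 (199, 229 and 258 FPKM against 356, 381 and 394, change 0.72 ± 0.14). VIM, the intermediate filament of mesenchymal and injured cells, fell by 0.34 ± 0.06. Of 13 tested proximal tubule genes, 3 rose and 3 fell, and 1 was called higher without any 1 of the Dox libraries and 1 lower without Dox 1. DPP4, a brush border peptidase, rose from 13.3 to 19.6 FPKM to 31.7 to 38.1 (1.03 ± 0.14). The other large falls were those of the membrane protein gene SHISA2 (-1.19 ± 0.09), the cytoskeletal gene DPYSL3 (-1.16 ± 0.06), the bone morphogenetic protein gene GDF6 (-0.97) and the potassium channel gene KCNMA1 (-0.94). CYP24A1, which inactivates vitamin D and is made in the proximal tubule, fell from 16.9 to 18.9 FPKM to 7.56 to 7.96 (-1.11 ± 0.07).

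Proliferation genes were called at shares near or below those of all tested genes (10.6% higher and 7.31% lower), apart from the lower calls of mitotic genes. Of 51 genes of G1/S and DNA replication, 4 were called in each direction (7.84%). Of 51 genes of G2/M and mitosis, 5 were called lower (9.8%) and 1, CENPT, higher (1.96%), with a median of -0.003. With 1 library left out, the G1/S list had 1 (without DMSO 2) to 4 genes higher and 2 (without DMSO 1, Dox 2 or Dox 3) to 6 lower, and the G2/M list 1 (without Dox 3) to 7 lower. The lower counts were 7 and 10 with median-ratio scaling, 12 and 15 after removal of the length and GC trend, and 14 and 18 when the replicate block was added to that. CDKN1A, the p21 gene, was at 24.5, 21.6 and 19.4 FPKM with DMSO and 36.7, 48.0 and 41.8 with Dox (0.92 ± 0.10, adjusted p = 8.6e-05). CDKN2C (0.40) and CDKN1B (0.36) rose, and cyclin D1, CCND1, fell by 0.46 ± 0.06. Of 26 CDK inhibitors and p53 targets, 5 were called higher (19.2%) and 2 lower (7.69%).

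Some genes of the interferon response, antigen presentation and complement rose. Of 34 interferon response genes, 7 were called higher (20.6%, against 10.6% of all tested genes) and 0 lower, and without Dox 2 the higher count was 4. With the length and GC trend removed, 8 were higher and 4 lower. IFI16, a DNA sensor, rose by 1.09 ± 0.19, the guanylate-binding gene GBP2 by 0.89 and the signal transducer gene STAT2 by 0.67. In the MHC class I pathway, 4 of 18 genes were called higher, among them the class I activator gene NLRC5 (0.81) and the light chain gene B2M (0.47), and 2 were lower, TAP1 (-0.27) and ERAP1 (-0.18). With the length and GC trend removed 6 were higher and 4 lower. The call of TAP1 was lost without any 1 of DMSO 1, DMSO 2 or Dox 1 to 3 (-0.284 to -0.165) and that of ERAP1 without any 1 of DMSO 2, DMSO 3 or Dox 1 to 3 (-0.191 to -0.162). Complement genes were called higher in 6 of 12 cases and lower in 0, with C1R (0.78 ± 0.09), C1S (0.62) and the regulator gene CD55 (0.56) among them.

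Among 552 tested genes of transcription factor families chosen by name prefix, 30 were called higher and 22 lower, smaller shares than the 10.6% and 7.31% of all tested genes. Most of them carry the ZNF prefix. Of 428 tested ZNF genes, 20 were called higher (4.67%) and 9 lower (2.1%). The small shares thus mainly describe zinc finger genes and need not hold for the other families. The largest changes were the zinc finger gene ZNF114 (7.93 to 8.40 FPKM against 19.1 to 21.7, change 1.23 ± 0.08) and ID2 in one direction, and HES1, a Notch target (-0.61), and SMAD3 in the other. KLF6 (-0.49 ± 0.05) and KLF7 (-0.46) were the 2 called of 12 KLF genes. In the stress response to scarce amino acids, DDIT3, the CHOP gene, rose from 32.0 to 37.5 FPKM to 64.7 to 69.7 (0.94 ± 0.06) and GDF15 by 0.52, whereas the proline synthesis gene PYCR1 fell by 0.76 ± 0.06. Of 39 genes of that list 5 were called higher and 7 lower, and without DMSO 1 the count called higher was 9. Solute carriers, at 38 of 200 called higher and 14 lower (5 lower without Dox 3, 7 without DMSO 2 and 9 without DMSO 1 or Dox 1), included the neutral amino acid transporter gene SLC6A15 (1.02) and the mitochondrial nucleotide carrier gene SLC25A36 (1.15).

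The same change could be set beside that of Dox in the presence of the inhibitor, as an interaction in the same fit. Over all tested genes the difference was called for 357 (2.82%), negative for 242 (1.91%) and positive for 115 (0.909%). Of the 1344 genes called higher with Dox alone, 180 had a smaller change with the inhibitor and 4 a larger one by this test. Of the 925 called lower, 71 had a less negative and 11 a more negative change. These counts use the DMSO and Dox libraries on both sides, so the choice of genes by their calls bears on the sign of the difference. The values of the genes named here are given in the closing section.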

How the data were processed

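RNA-seq values of 12 HK-2 libraries, 3 in each of 4 groups, were used as the FPKM that the authors deposited. Per the submitters' processing notes, Trim Galore 0.6.7, Salmon 1.9.0 and GRCh38.p13 (hg38) were used. For the annotation and the FPKM calculation the sources used here give nothing, and read depth is unknown. Genes at 1 FPKM or more in at least 3 libraries (12649) were tested with limma 3.58.1 in R 4.3.3 on log2(FPKM + 1), with 4 group means, moderation with an intensity trend and Benjamini-Hochberg adjustment over all of them. The script was tested on simulated data.

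Genes and lists were chosen with earlier results of these data known. Named were the 20 largest rises and 20 largest falls with at least 5 FPKM in the higher group and no overlap, up to 6 called genes per list, members of short lists, genes switched on or off, and transcription factors. PPT2, TPCN1, IL34, MYL12A, RPL21 and PAX8 were named after their values were seen. Promoters are from RefSeq (GRCh38.p14). Other pseudocounts, filters, scalings, a replicate block, an intensity-free moderation and each library left out were tried. Some genes that this rule names are not reported here.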

Additional observations from a re-analysis of the deposited data

Results flagged for a closer look

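Of the genes named here, 73 are listed for a difference between treatments: their Dox change with MSC2530818 differed from that without it, tested as an interaction in limma with Benjamini-Hochberg adjustment over all tested genes (adjusted p from 4.3e-06 to 0.049). Each value below is the log2 change with the inhibitor minus that without, on the log2(FPKM + 1) scale. The cause of the differences was not tested, and for genes chosen because they changed with Dox alone the sign of the difference is partly set by that choice.

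For 59 genes with a positive change under Dox alone the change was smaller with the inhibitor. Differences beyond -1 were found for NMRK2 (-3.302), SPINK1 (-2.293), GAPLINC (-2.201), GPNMB (-2.168), TRIM63 (-1.798), UAP1L1 (-1.719), RRAGD (-1.598), PTGES (-1.594), TNFRSF14 (-1.467), FNIP2 (-1.422), PTGDS (-1.406), RENBP (-1.399), FTH1 (-1.348), IFI30 (-1.322), CEMIP (-1.279), LY96 (-1.271), HMOX1 (-1.227), SQSTM1 (-1.153), CD22 (-1.135), TSPAN10 (-1.134), BEX2 (-1.122), ACP5 (-1.104), ASAH1 (-1.054), ZNF114 (-1.039), ANKRD1 (-1.034) and SULT1C2 (-1.015). Differences between -1 and -0.6 were found for GDF15 (-0.964), CTSD (-0.955), SOD2 (-0.954), PLA1A (-0.952), CTSA (-0.93), CDKN1A (-0.918), ACSL1 (-0.902), PLEKHM1 (-0.898), TBC1D7 (-0.852), MCOLN1 (-0.832), SREBF1 (-0.83), SLC17A5 (-0.826), GNPDA1 (-0.82), SLC6A15 (-0.751), GPR143 (-0.721), RRAGC (-0.701), AMDHD2 (-0.644), NEU1 (-0.634), ENO2 (-0.628), CLCN7 (-0.617) and TPP1 (-0.61). Smaller ones were found for FLCN (-0.595), DDIT3 (-0.545), ATP6V1F (-0.526), NLRC5 (-0.507), CPT1A (-0.503), TFE3 (-0.471), PFKFB2 (-0.454), RAB9A (-0.425), STAT2 (-0.402), CENPT (-0.359), IGF2R (-0.334) and RAB29 (-0.276). In 13 of these genes the change with the inhibitor was under 0, and in 4 of them, HMOX1, PTGES, GDF15 and PLEKHM1, it was called lower.

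For 12 genes that fell with Dox alone the change was less negative with the inhibitor, or in CDH6 slightly above 0: COL8A1 (0.505), CXCL8 (0.554), EDN1 (0.689), TNFRSF19 (0.723), SQLE (0.738), DPYSL3 (0.759), CTGF (0.803), HMGCS1 (0.817), THBS1 (0.871), SHISA2 (0.878), IL11 (0.928) and CDH6 (0.952). For 2 genes it was more negative, PLAT (-0.725) and PODXL (-0.539).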

How the results depend on the processing

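All values here count genes at an adjusted p under 0.05 in limma unless a fold is named. With a pseudocount of 0.1 FPKM, 141 genes were called higher and 38 lower at least 2-fold, and among genes with a mean of at least 5 FPKM 37 were called higher at least 2-fold. Removing the trend of each library with transcript length and GC content, an alternative chosen after seeing the data, gave 3490 calls, 1869 of them lower, and 939 called differences of the Dox change with and without inhibitor. The share of calls that were higher was 59.2% in the reported fit, 62.8% without a filter, 53.8% with the minimum mean, 44.9% with median-ratio scaling, 43.3% with quantile normalization and 46.4% with the length and GC trend removed.

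The replicate number as a block gave 3741 calls (2232 higher and 1509 lower) and 666 called differences. The block together with removal of the length and GC trend gave 4152 calls, 2289 of them lower, and 1144 called differences. The deviations of same-numbered DMSO and Dox libraries correlated at 0.017, -0.072 and 0.198 across genes. The lowest values over all pairs of groups were 0.017, -0.09 and 0.077. The other pairs lay at or above these, and their values are not given, so low minima do not show that replicate number carried no shared variation. Whether same-numbered libraries shared a batch was not tested.

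Leaving out 1 library at a time gave 1427 to 2665 calls, 868 to 1574 higher and 559 to 1147 lower, 66 to 85 higher and 19 to 24 lower at least 2-fold, and 186 to 420 called differences. Calls fell by over 1.5 times without DMSO 2 (1492) and without Dox 3 (1427), and lower calls also without DMSO 1 (586). Called differences fell by as much without DMSO 2 (198), Dox 2 (186), Dox 3 (207), inhibitor 2 (204), Dox with inhibitor 2 (237) and Dox with inhibitor 3 (214). Of 7814 values of 359 genes under these alternatives, 7213 kept their side of the threshold, 578 lost the call and 22 gained one. Direction was compared only where the gene was called in the reported or the alternative fit. Among those values that of FTL alone reversed, to -0.157 after quantile normalization. The cause of these shifts was not tested. Read depth is unknown from FPKM, so counting error could not be given, and 3 libraries a group limit the precision.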

Other observations

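Rab GTPases, which direct vesicle traffic, were called higher in 12 of 53 cases (22.6%) and lower in 2 (3.77%). All tested genes had 10.6% and 7.31%. The Rab median was 0.132, against 0.041 over all tested genes. Without DMSO 2, 7 were called higher. RAB29, which acts at the trans-Golgi network and lysosome, stood at 25.6, 26.2 and 24.7 FPKM with DMSO and at 38.8, 40.8 and 39.3 with Dox (0.62 ± 0.05). RAB38, which serves melanosome and related lysosome traffic, rose by 0.85 ± 0.11.

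Of 12 tested Notch genes, 3 were called lower (25%) and 1 higher (8.33%), against 7.31% and 10.6% of all tested genes. With 1 library left out, 2 to 4 were called lower and 0 to 1 higher. The higher call was lost without DMSO 2, DMSO 3, Dox 2 or Dox 3 and with quantile normalization. The ligand gene JAG1 fell from 21.2, 19.7 and 20.3 FPKM to 12.4, 12.7 and 13.7 (-0.62 ± 0.06). Of 14 tested Wnt targets, 5 were called lower (35.7%) and 2 higher (14.3%). The higher calls, LGR4 (0.34) and NKD2 (0.35), were both lost under median-ratio scaling, quantile normalization and without any 1 of the 3 DMSO libraries, Dox 2 or Dox 3. The receptor gene TNFRSF19 fell from 26.2, 26.1 and 28.6 FPKM to 14.6, 14.4 and 14.2 (-0.86 ± 0.06). Of 16 tested heat shock genes 1 was called higher (6.25%) and 1 lower (6.25%), below the shares of all tested genes. Higher was HSPB8, which serves selective autophagy (0.63 ± 0.07). Lower was HSP90AB1 (-0.24 ± 0.06), which lost its call without Dox 3 (-0.213). The DMSO and Dox libraries did not overlap for these named genes. The same held for 2258 of the 2269 called genes and 39% of all tested genes.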
